A study of Populus davidiana with 6 samples.

Results

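In leaves of the aspen Populus davidiana, 445 annotated loci drew almost all of their expression from transcripts that the deposited files mark as new, while the known transcripts of the same loci held under 5% of the locus value in each of the 6 samples. Values are FPKM (fragments per kilobase of transcript, corrected for library size), given per transcript and summed here over the transcripts of a locus. The loci were chosen by identifier, by holding at least 1 known and at least 1 new transcript, by a span of at least 1000 and under 15000 bases, by a mean of at least 20 FPKM, and by that 5% limit. They are 445 of the 40537 loci in the files and 445 of the 5059 loci that meet the other limits. Of the others, 2465 had known transcripts at 50% or more in every sample and are called known-led here, and 2149 lay between and are called intermediate. The 445 are called new-led.

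All samples came from the cultivar Palgong1, labelled as drought sensitive, grown from internodes in sterile culture on MS medium with sucrose, Gelrite and naphthalene acetic acid and used at about 6 weeks. The 3 air-dried samples came from plants that had been pulled from the medium, rinsed in sterile water and exposed to air for about 10 min, and the 3 control samples from plants without that exposure, whose handling the labels do not describe further. Leaf RNA was taken in triplicate, and nothing in the labels says that the triplicates were separate plants, so the p-values below measure the spread between samples that may be technical. The files name no gene, so the leaf label could not be checked against marker genes, no role is given to any locus, and no sequence was read.

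A reference gene model lists the known transcripts of a gene, each with a start, a set of exons and an end. Plant genes can also be transcribed from other start sites, spliced with skipped or retained segments, or ended at other polyadenylation sites, and an assembly of RNA-seq reads lists such forms as new transcripts. Where transcripts of a locus share exons, the fragments in those exons have to be divided among them by estimation, so the value of 1 transcript is less direct than the sum over its locus.

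The number of fragments per sample is unknown, because the files hold FPKM alone, and no counting interval is given. The median new-led locus stood at 38.2, 38.0 and 35.8 FPKM in control samples 1, 2 and 3 and at 37.2, 36.8 and 37.0 FPKM in air-dried samples 1, 2 and 3. Control sample 1 stood apart from the rest: 21 new-led loci there lay more than 2-fold from the median of the other 5 samples, against 8 to 13 in each other sample. It was the highest of the 6 samples in 143 of the 445 loci and the lowest in 85. The median coefficient of variation of the new-led loci was 8.75% among the 3 control samples, 5.81% among control samples 2 and 3, and 6.16% among the 3 air-dried samples.

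The selection itself fixed how little the known transcripts held, and the following values describe it. The highest known share in any sample had a median of 0.080% over the 445 loci, and it stayed under 1% in 284 of them and under 0.001% in 163. Known transcripts together had a mean under 1 FPKM in 414 loci and under 0.1 FPKM in 280. Summed over all new-led loci, known transcripts made up 0.204% of the FPKM in control sample 1 and 0.605% in control sample 3, the lowest and the highest of the 6 samples. Over the loci with a leading transcript of at least 1000 bases these shares were 0.326% and 0.586%. The loci nearest to the limit from inside were POPTR_0016s02000.r1, POPTR_0009s06900.r1 and POPTR_0019s15370.r1, with highest known shares of 4.97%, 4.88% and 4.81%. Just outside lay POPTR_0025s00420.r1, POPTR_0008s16490.r1 and POPTR_0002s02440.r1 at 5.01%, 5.02% and 5.06%. At the limit on level, POPTR_0003s10150.r1, POPTR_0017s13100.r1 and POPTR_0011s07030.r1 were inside with means of 20.19, 20.19 and 20.25 FPKM, and POPTR_0002s16460.r1, POPTR_0010s10950.r1 and POPTR_0010s17340.r1 were outside with 19.99, 19.96 and 19.96 FPKM.

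New-led loci lay on all 19 numbered chromosomes, which held 435 of them, and 10 lay on other sequences. Of the loci under the same limits, the share that was new-led ran from 5.78% on chromosome 12 to 11.4% on chromosome 4. The plus strand carried 237 and the minus strand 208. Coordinates are those of the files, for which the sources used here name no genome build.

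In structure, the new-led loci were longer than the comparison loci and held more transcripts. Their median span was 5104 bases, against 3990 for intermediate and 3506 for known-led loci, and the part covered by known transcripts alone also differed, with medians of 4297, 3518 and 3392 bases. A median new-led locus had 4 new transcripts, and the most had 60. Exactly 1 new transcript was listed in 70 loci (15.7%), compared with 37.0% of known-led loci, and 78 new-led loci had at least 10. More than 1 known transcript was listed in 41 new-led loci (9.21%) and in 19.96% of known-led loci. These differences between kinds of locus were not tested.

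The leading new transcript of each locus, the one with the highest mean FPKM, most often began upstream of the annotated start. It reached beyond the 5′ end of the known transcripts in 248 of the 445 loci (55.7%), by a median of 149 bases, and beyond the 3′ end in 116 (26.1%), by a median of 379 bases. In known-led loci, the leading new transcript reached beyond the 5′ end in 31.0% and beyond the 3′ end in 9.70%. Intermediate loci had 42.1% and 28.6%, so extension at the 3′ end was no more frequent in new-led than in intermediate loci. Taken as exclusive classes, 147 new-led loci were extended at the 5′ end only, 40 at the 3′ end only and 67 at both, 103 had the same outer ends as the known transcripts, and 88 fell short of the known transcripts at 1 end or both. The classes in the comparison loci, where the leading new transcript carries less of the expression, are shown beside these and were not tested.

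**Figure D1:**
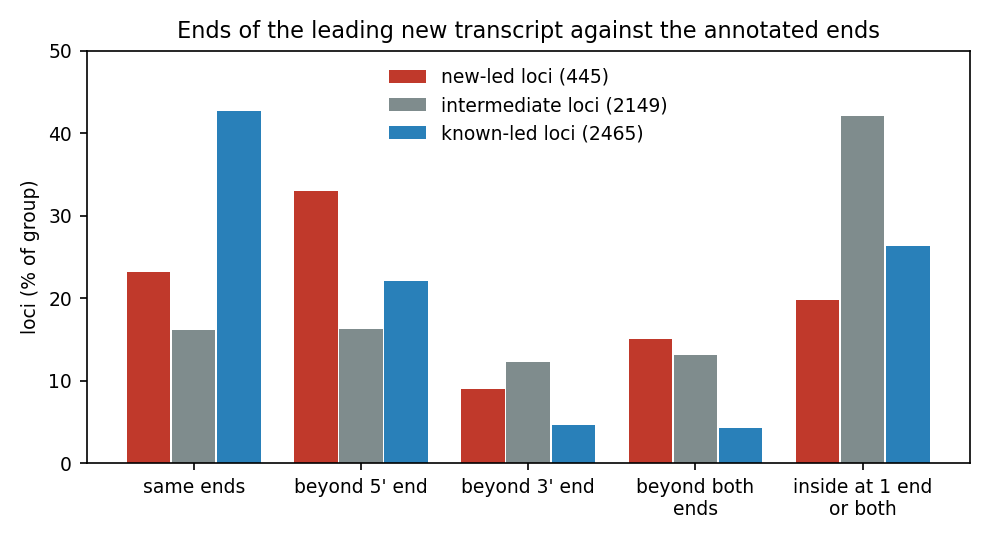
Bars give the percent of loci (y axis) in each class of end position (x axis) for the leading new transcript, in 445 new-led, 2149 intermediate and 2465 known-led loci. Extension beyond the 5′ end alone was the class with most new-led loci (33.0%), the same ends that with most known-led loci (42.7%), and a shorter transcript that with most intermediate loci (42.1%).

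Some extensions were long. More than 1000 bases were added at the 5′ end in 63 new-led loci (14.2%), against 4.84% of intermediate and 0.690% of known-led loci, and at the 3′ end in 37 (8.31%), against 6.79% and 1.26%. Of the 99 loci with such an extension at either end, 19 ran into another listed locus and 80 did not. This count left out listed loci without a strand and those that already overlapped the known span. The leading transcript spanned at least 2 times the known span in 65 loci and at most 0.5 times in 34. POPTR_0006s15880.r1 (chromosome 6, 13539415 to 13553970, minus strand) had the longest 3′ extension, 11562 bases. Its extended transcript stood at 21.7, 15.4 and 23.6 FPKM in the control and 19.9, 24.5 and 23.2 FPKM in the air-dried samples, within a locus value of 42.1 to 52.5 FPKM. The groups overlapped in this locus, and its 2 shorter new transcripts kept the annotated ends.

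Another locus was in reach of some of these transcripts. In 53 new-led loci (11.9%) the locus shared bases with a locus on the other strand, and in 15 (3.37%) with one on the same strand. As the library kit does not mark strand, fragments from such overlaps cannot be told apart, and the values of those loci are uncertain to that extent. Among the 34 loci called below as changed in air-dried leaves, 3 had such an overlap on the other strand: POPTR_0004s21710.r1, POPTR_0007s04340.r1 and POPTR_0001s03900.r1.

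Names of most new transcripts end in a letter, whose meaning the files do not state. Of the 2550 new transcripts in new-led loci, 2473 (97.0%) ended in j, 62 in o, 4 in the sign = and 11 carried no such ending. The leading transcript ended in j in 412 loci, in o in 26 and in the sign = in 3, and in 4 it had none. Cufflinks is distributed with a companion program that uses the same letters, where j stands for a transcript sharing a splice junction with a reference model, o for another overlap with its exons and = for the same chain of introns. Whether the submitters used the letters in that sense is not stated. Of the 103 loci with unchanged outer ends, the leading transcript ended in j in 102. An abundant case was POPTR_0008s20770.r1 (chromosome 8, 14769841 to 14773649, plus strand), where the single new transcript had the same start and end as the single known one. The new transcript stood at 1781, 1708 and 1261 FPKM in the control and 1379, 1301 and 1132 FPKM in the air-dried samples, and the known one at 1.98, 1.35 and 1.35 and at 1.02, 1.41 and 1.23 FPKM. With a single new transcript, its high share in every sample was fixed by the selection limit on known transcripts. The known share in this locus was at most 0.111% in any sample.

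The 3 loci led by a transcript ending in = differed among themselves. In POPTR_0005s26080.r1, the known transcript was listed at 0 in all 6 samples, and the new one with the same ends stood at 124, 124 and 91.8 FPKM in the controls and 122, 117 and 94.4 FPKM in air-dried leaves. The locus POPTR_0003s21020.r1 had 137, 85.4 and 109.7 FPKM in the controls and 54.3, 59.2 and 82.0 FPKM in air-dried leaves, without overlap between the groups, but it did not pass the test described below (adjusted p = 0.138, limma). POPTR_0001s44440.r1 (chromosome 1, 44859297 to 44861329, plus strand) had 4 known and 6 new transcripts. Its leading new transcript ended 32 bases short of the annotated 3′ end and stood at 337, 455 and 386 FPKM in the controls and 585, 579 and 522 FPKM in air-dried leaves. All 3 air-dried samples were above all 3 controls there, as they were for the locus value, which was 505, 503 and 450.2 FPKM in the controls and 662, 706 and 646 FPKM in air-dried leaves. The locus difference of 0.47 (SE 0.10) in log2(FPKM + 1) did not pass (adjusted p = 0.0606, limma).

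Within the new-led loci, a single new transcript usually held most of the value. The leading new transcript took a median of 76.5% of the locus FPKM (quartiles 51.6% and 96.9%), at least 50% in 347 loci and at least 90% in 156. It was the highest transcript of its locus in all 6 samples in 295 loci (66.3%), and in 5 samples in a further 62. Between replicates that share had an SD whose median was 6.18 points in the controls and 3.87 points in the air-dried samples. The 70 loci with exactly 1 new transcript are counted in all these values. In those loci the 5% limit alone fixed the high share and the rank of the leading transcript. Loci with many transcripts were divided among more of them. POPTR_0003s10930.r1, with 60 new transcripts and 1 known one, gave 22.8% to its leading transcript, and POPTR_0010s12210.r1, with 57 new ones, gave 32.6%. The locus value of POPTR_0003s10930.r1 was 25.99, 30.3 and 28.9 FPKM in the controls and 25.04, 30.9 and 30.2 FPKM in air-dried leaves, so the groups overlapped. The next in number of transcripts were POPTR_0007s12550.r1, POPTR_0004s00430.r1 and POPTR_0002s19670.r1, with 29, 26 and 25 new ones.

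**Figure D2:**
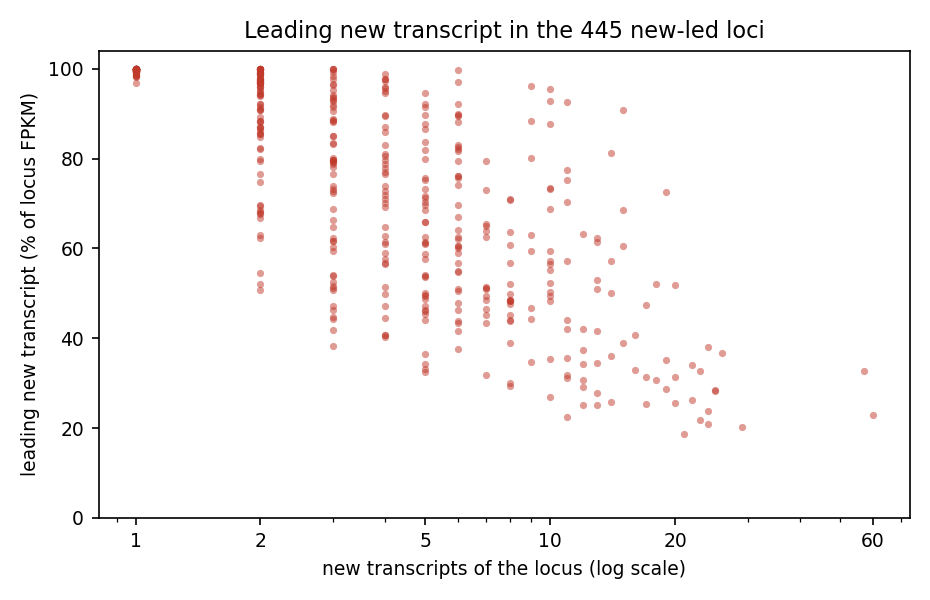
Each point is 1 of the 445 new-led loci, with its number of new transcripts on the x axis (log scale) and the share of the locus FPKM held by its leading new transcript on the y axis (percent, mean of 6 samples). Loci with 1 new transcript lie near 100%, and the locus with 60 lies at 22.8%.

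In level, the new-led loci ran from a mean of 20.2 to 10603 FPKM with a median of 37.8 FPKM. A mean of at least 100 FPKM was reached by 60 of them, at least 200 by 28 and at least 1000 by 2. After POPTR_0008s20770.r1, the most abundant locus with a long leading transcript was POPTR_0015s07330.r1 (chromosome 15, 8503407 to 8510153, plus strand). Its leading new transcript began 3480 bases upstream of the first of 6 known transcripts and stood at 892, 888 and 838 FPKM in the controls and 796, 797 and 754 FPKM in air-dried leaves. The highest of the known transcripts had 16.7, 10.9 and 15.9 FPKM in the controls and 12.3, 9.75 and 14.5 FPKM in air-dried leaves. All air-dried locus values, 813, 812 and 777 FPKM, were below the control values of 933, 910.4 and 869.8 FPKM, and the difference of -0.18 (SE 0.11) in log2(FPKM + 1) did not pass (adjusted p = 0.400, limma).

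The other abundant loci showed different forms of new transcript. POPTR_0008s06420.r1 (chromosome 8, 3809101 to 3813009, plus strand) had a known transcript of 1547 bases, listed at 0 or at vanishing values in every sample, and a leading transcript that began 2334 bases upstream and ended 28 bases downstream. Its locus value was 431, 421 and 402 FPKM in the controls and 452, 451 and 427 FPKM in air-dried leaves. POPTR_0017s06450.r1 (chromosome 17, 4939506 to 4944151, minus strand) was extended by 2584 bases at the 3′ end, where it reached another locus, and stood at 396, 361 and 362 FPKM in the controls and 482, 463 and 395 FPKM in air-dried leaves. Neither locus passed the test (adjusted p = 0.610 and 0.267, limma), and the groups overlapped in both. In POPTR_0004s20830.r1 a single new transcript, which began 950 bases upstream, held the locus at 364, 385 and 349.8 FPKM in the controls and 454, 426 and 414 FPKM in air-dried leaves. Its groups did not overlap, but it did not pass either (adjusted p = 0.205, limma).

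Expression in several abundant loci was divided among several new transcripts. POPTR_0010s14080.r1 (chromosome 10, 13778028 to 13783784, minus strand) stood at 517, 515 and 455 FPKM in the controls and 459, 439 and 419.9 FPKM in air-dried leaves, of which the leading transcript held 34.4%. POPTR_0008s12890.r1 and POPTR_0006s04960.r1, with means of 515 and 460.3 FPKM, gave 42.1% and 48.4% to theirs, which in POPTR_0006s04960.r1 spanned 3937 bases against a known span of 5534 and began inside the annotated 5′ end. POPTR_0007s10980.r1 (chromosome 7, 11214176 to 11221161, plus strand) had a pair of new transcripts that began 6 bases apart. The leading one had 167, 217 and 196 FPKM in the controls and 185, 191 and 185 FPKM in air-dried leaves, with overlap between the groups. The second had 224, 158 and 209 FPKM in the controls and 91.9, 106 and 131 FPKM in air-dried leaves, with no overlap. The locus value was 399.8 ± 16.1 FPKM in the controls and 302 ± 19.8 FPKM in air-dried leaves (SD, n = 3 each), a difference that did not pass (adjusted p = 0.0637, limma).

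Most new-led loci kept a similar value in all 6 samples, and many of those with a short leading transcript did not. The ratio of the highest to the lowest sample had a median of 1.34, was under 1.5 in 325 loci and reached 4 in 16. In the 2465 known-led loci the median was 1.33, with 1825 under 1.5 and 15 at 4 or more. In the 2149 intermediate loci it was 1.41, with 1286 under 1.5 and 79 at 4 or more. Of the 353 new-led loci whose leading transcript spanned at least 3000 bases, 3 reached a ratio of 4. Of the 19 with one under 1000 bases, 10 did, with a median of 4.32 in that group. Control sample 1 was the highest of the 6 in 8 of those 19 loci, and limma called 0 of the 19, with 0 at an unadjusted p under 0.05. What part the short span had in the spread was not tested.

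**Figure D3:**
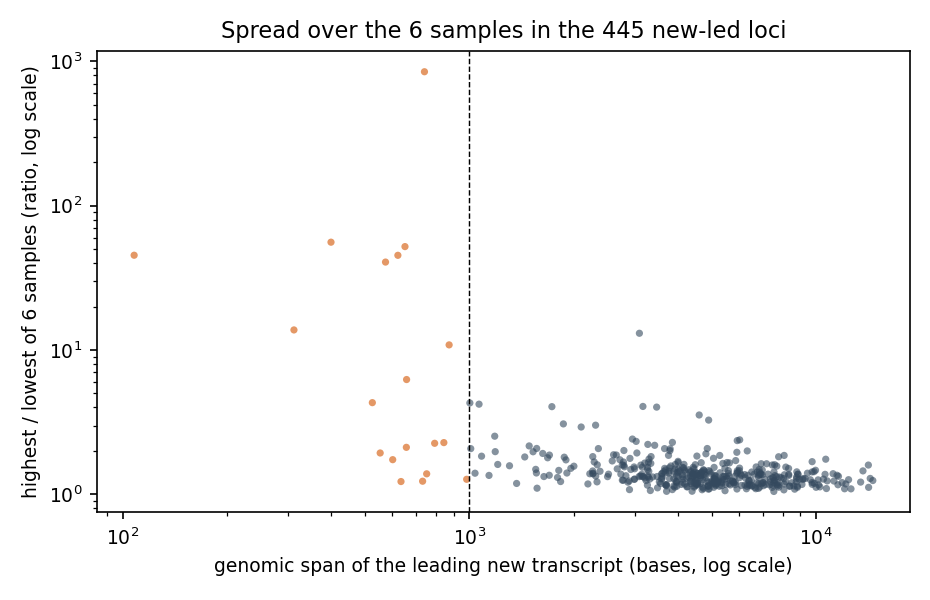
Each point is 1 of the 445 new-led loci, with the genomic span of its leading new transcript on the x axis (bases, log scale) and the ratio of its highest to its lowest sample on the y axis (log scale). The dashed line marks 1000 bases, and the 19 loci to its left (orange) include 10 of the 16 with a ratio of at least 4.

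The most abundant new-led locus belonged to this group. POPTR_0016s13150.r1 (chromosome 16, 12410806 to 12413020, plus strand) was led by a transcript of 108 bases beside a known transcript of 2207 bases. It stood at 12655, 21588 and 497 FPKM in the controls and 22556, 3154 and 3171 FPKM in air-dried leaves, so control sample 3 lay lowest and the groups overlapped. POPTR_0011s13940.r1 (chromosome 11, 16554654 to 16559804, plus strand), led by a transcript of 742 bases, ran from 3368 FPKM in control sample 1 through 405 and 39.1 FPKM in the other controls to 3.97, 40.3 and 69.3 FPKM in air-dried leaves. Its highest value was 847 times its lowest and it did not pass (adjusted p = 0.292, limma). The locus POPTR_0002s08160.r1, led by 652 bases, had 784, 112 and 18.8 FPKM in the controls and 294, 30.1 and 15.0 FPKM in air-dried leaves, with overlap. Among loci with a long leading transcript, the widest spread was in POPTR_0006s22570.r1, at 21.1, 34.3 and 115 FPKM in the controls and 206, 119 and 276 FPKM in air-dried leaves. Every air-dried value there was above every control, and the difference of 2.08 in log2(FPKM + 1) did not pass (adjusted p = 0.156, limma). This locus and POPTR_0002s08160.r1 were picked out after their values were seen.

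Small differences between air-dried and control leaves were called in a minority of the new-led loci. As the handling of the controls is not described, air exposure cannot be told apart from pulling up and rinsing the plants. Of the 445, 13 rose and 21 fell at a Benjamini-Hochberg adjusted p under 0.05 in limma, fitted on log2(FPKM + 1) over the 22835 loci that averaged 1 FPKM or more. The background in all tested loci was 4.16% that rose and 2.61% that fell, and the new-led loci had 2.92% and 4.72%, or 7.64% called in all against a background of 6.78%. A share this near the background is no result about these loci. Under the same limits on level and span, 11.1% of known-led and 6.75% of intermediate loci were called, and these shares were not tested against each other. The median difference of the new-led loci was -0.042 in log2(FPKM + 1), beside 0.0066 for all tested loci. Air-dried values lay wholly above the control values in 58 new-led loci and wholly below in 99, against backgrounds of 17.0% and 13.3% of all tested loci. Among the 2465 known-led loci, under the same limits on level and span, 487 lay wholly above and 526 wholly below. In bulk leaf RNA, fewer cells of a type and less RNA per cell cannot be told apart.

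**Figure D4:**
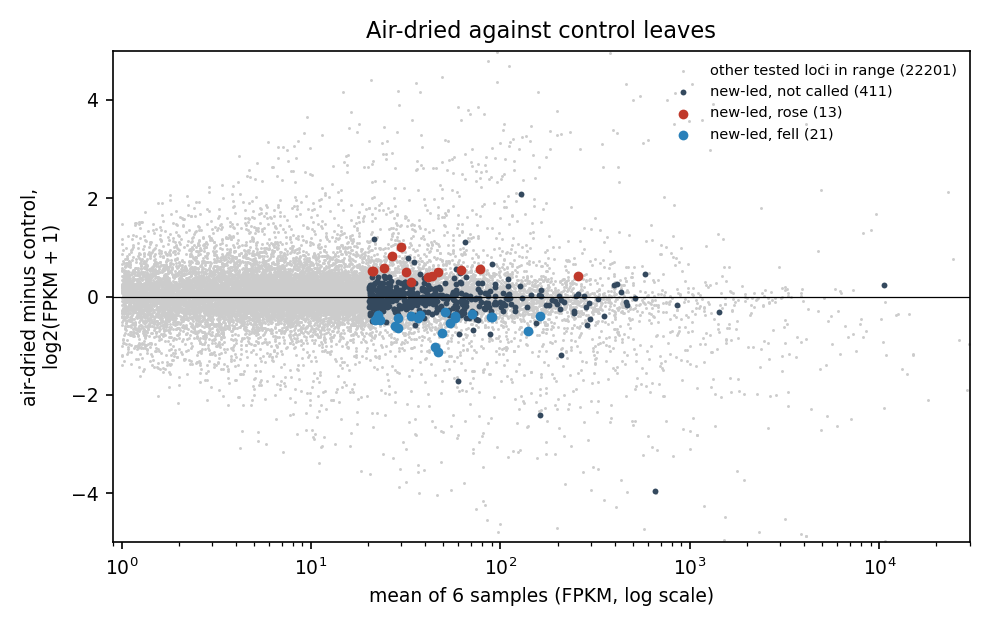
Each point is a locus, with its mean FPKM on the x axis (log scale) and the air-dried minus control difference in log2(FPKM + 1) on the y axis. The 13 new-led loci that rose (red) and the 21 that fell (blue) lie between -1.13 and 1.00, and 189 other loci beyond the axes are not drawn.

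The called changes were small. The rises spanned 0.30 to 1.00 in log2(FPKM + 1) with a median of 0.52, the falls 0.31 to 1.13 with a median of 0.43, and 1 rise and 2 falls reached a doubling or its inverse. Calls were found in loci of each class of ends, with 11 of 103 among loci with unchanged ends and 14 of 147 among those extended at the 5′ end only. There were 2 of 40 among those extended at the 3′ end only and 4 of 67 at both. Among those that fell short at 1 end or both there were 3 of 88. The leading transcript differed in the same direction as its locus in all 13 rises and in 19 of 21 falls. It is part of the locus sum, with a median share of 88.7% in the rises and 81.2% in the falls. The shared direction was thus largely built in. Without control sample 1, 13 new-led loci rose and 14 fell, beside 4.86% and 2.56% of all loci tested, or 7.43% in all. Of the 13 rises found with all samples 9 were among them, and of the 21 falls 14. With any other single library left out, 1 to 5 new-led loci rose and 2 to 9 fell. For those fits the share called among all tested loci is not given here, so the counts are no result about new-led loci. POPTR_0018s08300.r1, POPTR_0014s08990.r1 and POPTR_0022s00300.r1 were called in all 17 alternative settings that kept the locus value as the sum of all transcripts, and each of the other 31 loci in 5 to 14 of them. With the locus value taken from new transcripts only, limma called 0 of the 445, these 3 included. In that limma fit 67 had an unadjusted p under 0.05, and the lowest adjusted p was 0.0562. The share called among all loci in that fit is not given here either. Known transcripts held under 5% of each locus, so the values themselves differed little from those of the main fit. The median standard error was 0.128, against 0.095 with all transcripts, and the reason was not tested. The minimum of 20 FPKM applied to the mean of all 6 samples: 5 of the 13 rises had a control mean under 20 FPKM and entered through their air-dried values, and 3 of the 21 falls had an air-dried mean under 20 FPKM and entered through their control values.

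The largest fall was in POPTR_0018s08300.r1 (chromosome 18, 9196309 to 9202323, plus strand). Its leading transcript began 4475 bases upstream of 3 known transcripts and held 94.97% of the locus. The locus stood at 69.4, 61.4 and 63.4 FPKM in the controls and 29.1, 29.2 and 29.1 FPKM in air-dried leaves. The 3 air-dried samples were nearly equal and all lay below the controls. The locus fell from 64.8 ± 4.13 to 29.1 ± 0.051 FPKM (SD, n = 3 each), a change of -1.13 (SE 0.067, adjusted p = 0.0019, limma). POPTR_0014s08990.r1 (chromosome 14, 6642986 to 6648925, plus strand), with 19 new transcripts and a leading one that began 1002 bases upstream, had 67.3, 57.4 and 57.5 FPKM in the controls and 29.6, 28.5 and 30.2 FPKM in air-dried leaves. It fell by 1.02 in log2(FPKM + 1) (SE 0.084, adjusted p = 0.0040, limma), again without overlap.

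The other 19 falls were under 2-fold. POPTR_0011s11490.r1, extended by 735 bases at the 5′ end, had 182, 169.9 and 168 FPKM in the controls and 108, 98.5 and 112 FPKM in air-dried leaves, and fell by 0.70 (adjusted p = 0.0098, limma). POPTR_0006s09160.r1, whose leading transcript kept the annotated ends, had 70.3, 61.6 and 52.7 FPKM in the controls and 34.9, 38.4 and 35.9 FPKM in air-dried leaves, and fell by 0.73 (adjusted p = 0.0261, limma). The controls spread more than the air-dried samples there, with an SD of 8.78 against 1.78 FPKM. POPTR_0001s01170.r1, with 14 new transcripts over 10649 bases, fell from 35.3 ± 1.30 to 22.4 ± 1.24 FPKM (SD, n = 3 each; adjusted p = 0.0085, limma). The remaining falls among the 10 with the largest change were in POPTR_0014s02810.r1, POPTR_0003s20320.r1, POPTR_0007s02140.r1, POPTR_0003s19150.r1 and POPTR_0014s07680.r1, by 0.60, 0.53, 0.48, 0.47 and 0.44 in log2(FPKM + 1).

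The largest rise was in POPTR_0022s00300.r1 (scaffold_22, 54135 to 57159, plus strand), where the single new transcript began 1562 bases upstream of the single known one and held 99.8% of the locus. The locus stood at 21.7, 19.5 and 17.7 FPKM in the controls and 41.3, 39.1 and 40.3 FPKM in air-dried leaves, with no overlap. It rose from 19.7 ± 2.00 to 40.2 ± 1.10 FPKM (SD, n = 3 each), a change of 1.00 (SE 0.088, adjusted p = 0.0049, limma). It is 1 of the 5 rises that met the minimum level only through the air-dried samples, as are POPTR_0005s18000.r1, POPTR_0006s03020.r1, POPTR_0002s09390.r1 and POPTR_0007s02020.r1. POPTR_0005s18000.r1, extended at both ends, had 15.5, 20.02 and 22.1 FPKM in the controls and 32.2, 35.4 and 35.4 FPKM in air-dried leaves, and rose by 0.82 (adjusted p = 0.0311, limma). Its leading transcript held 46.0% and did not pass alone.

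Further rises were found in loci at higher levels. POPTR_0014s12360.r1 (chromosome 14, 9123872 to 9127982, plus strand), whose leading transcript began 2710 bases upstream of a known span of 1401 bases, had 61.3, 64.7 and 63.1 FPKM in the controls and 94.5, 93.1 and 91.8 FPKM in air-dried leaves (rise of 0.56, adjusted p = 0.0069, limma). POPTR_0002s19170.r1, extended by 150 bases, had 50.3, 51.3 and 49.7 FPKM in the controls and 74.7, 73.7 and 73.1 FPKM in air-dried leaves (rise of 0.54, adjusted p = 0.0063, limma). The most abundant locus that rose was POPTR_0017s11410.r1, at 224, 209.6 and 225 FPKM in the controls and 312, 292 and 276 FPKM in air-dried leaves (rise of 0.42, adjusted p = 0.0483, limma). In all 3 loci each air-dried sample was above each control. The remaining rises among the 10 with the largest change were in POPTR_0006s03020.r1, POPTR_0002s09390.r1, POPTR_0007s02020.r1, POPTR_0004s16330.r1 and POPTR_0003s04460.r1, by 0.57, 0.53, 0.52, 0.50 and 0.50 in log2(FPKM + 1).

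**Figure D5:**
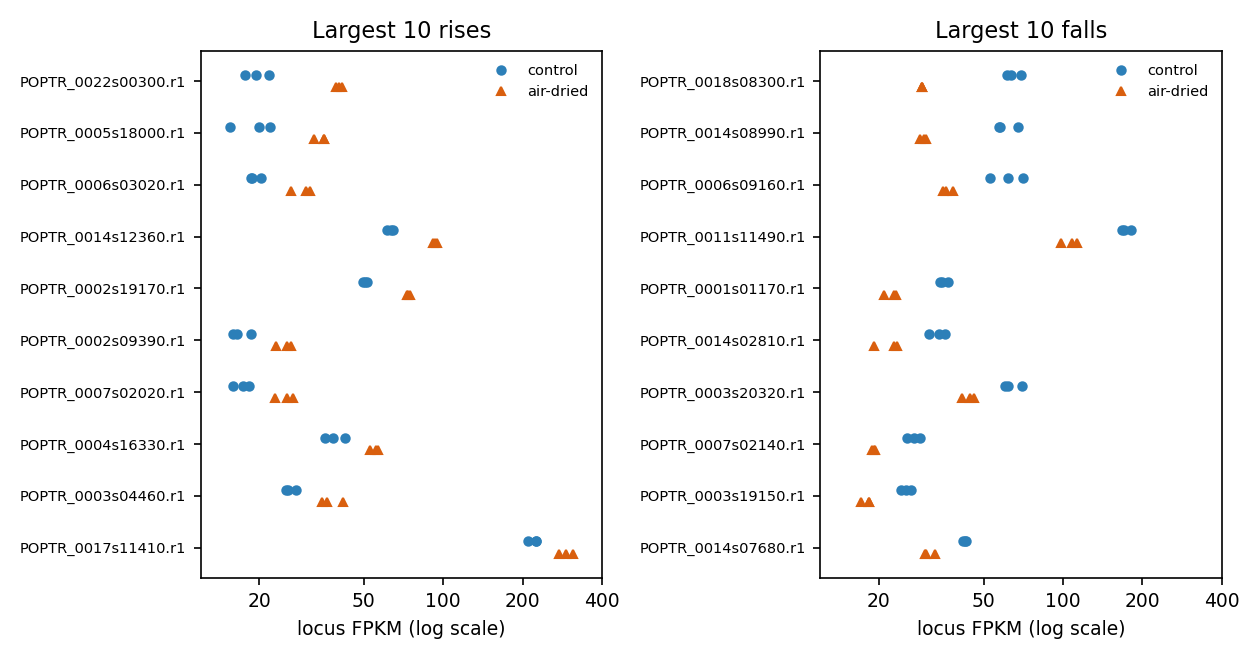
Points give the FPKM of each of the 6 samples (x axis, log scale) for the 10 new-led loci with the largest rises (left) and the 10 with the largest falls (right), with circles for control and triangles for air-dried leaves. In each of the 20 loci the 3 circles and the 3 triangles do not overlap. As the loci were picked by their called difference between these same samples, this separation was largely built in.

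A pair of neighbours on chromosome 3, noticed after the values were seen, changed in opposite directions. POPTR_0003s04460.r1 rose from 26.2 ± 1.16 to 37.5 ± 3.63 FPKM (SD, n = 3 each; adjusted p = 0.0354, limma), while POPTR_0003s04470.r1, on the same strand and 11975 bases further on, fell from 56.8 ± 2.21 to 45.7 ± 0.86 FPKM (adjusted p = 0.0425, limma).

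Tested one by one, few transcripts passed. In a limma fit over the 42517 transcripts that averaged 1 FPKM or more, 0.412% rose and 0.285% fell. Of the 445 leading new transcripts 1 rose, that of POPTR_0022s00300.r1 (1.01, adjusted p = 0.0296, limma), and 1 fell, that of POPTR_0018s08300.r1 (-1.14, adjusted p = 0.0159, limma). Of the 32 known transcripts of new-led loci that could be tested, limma called 0, with 5 at an unadjusted p under 0.05, so no known transcript was called against its locus. In the fit of known transcripts summed per locus, limma called 0 of the 31 new-led loci tested, with 6 at an unadjusted p under 0.05.

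Other new transcripts, not the leading ones, rose in 2 loci. In POPTR_0005s16680.r1 (chromosome 5, 13675938 to 13681160, plus strand) the transcript POPTR_0005s16680.1.r1.j had 5.05, 6.98 and 4.89 FPKM in the controls and 16.4, 17.7 and 18.7 FPKM in air-dried leaves, a rise of 1.497 (SE 0.18, adjusted p = 0.0359, limma). The locus as a whole fell, from 102 ± 5.66 to 75.8 ± 1.63 FPKM (SD, n = 3 each; adjusted p = 0.0257, limma). A second transcript there, POPTR_0005s16680.1.r3.j, was at 41.1, 31.9 and 24.8 FPKM in the controls and 15.3, 12.03 and 16.0 FPKM in air-dried leaves and did not pass (adjusted p = 0.145, limma). In POPTR_0015s09060.r1, the transcript POPTR_0015s09060.1.r3.j, which spans 520 bases at the start of the locus, was at vanishing values in all 3 controls and at 3.68, 7.72 and 7.67 FPKM in air-dried leaves (adjusted p = 0.0431, limma). This transcript met the minimum mean of 1 FPKM only through the air-dried samples, in which it was then called as risen. The difference was 2.82 (SE 0.35) in log2(FPKM + 1), and 1.16 to 5.94 in log2 over the alternative settings. Its rise was called in 4 of 15 alternative settings and that of POPTR_0005s16680.1.r1.j in 7 of 16. The leading transcripts named above were called in 9 of 16 (POPTR_0022s00300.r1) and 8 of 16 (POPTR_0018s08300.r1).

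The division of a locus among its transcripts could not be shown to differ between air-dried and control leaves. Shares were tested with limma after an arcsine square-root transform for 967 transcripts of 317 new-led loci, and 0 were called, with 35 (3.62%) at an unadjusted p under 0.05 and a lowest adjusted p of 0.788. Over all 31655 shares tested, limma also called 0, with 1455 (4.60%) at an unadjusted p under 0.05, and it called 1, in no new-led locus, when the shares were not transformed. Shares of new-led loci differed between the groups by a median of 5.78 percentage points. This test does not show that the shares were equal.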

How the data were processed

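Poly(A) RNA from leaves was made into TruSeq RNA libraries, a kit that does not mark strand, and sequenced as pairs of 100 bases, per the labels' protocols. Each deposited file lists FPKM by transcript, per the file headers. FastQC, TopHat and Cufflinks are named in the submitters' processing notes. The sources used here give no version of them, no genome build and no annotation. Known or new is the authors' mark on each transcript. Depth per sample is unknown, so no interval is given.

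FPKM was summed per locus, and 3 control and 3 air-dried samples were compared with limma 3.58.1 in R 4.3.3 on log2(FPKM + 1), with a variance trend, no block, Benjamini-Hochberg adjustment over all loci averaging 1 FPKM or more, and calls at an adjusted p under 0.05. This scale understates changes of low values. All 445 new-led loci passed that minimum. Transcripts were fitted the same way, and shares in loci averaging 5 FPKM or more, for mean shares of 5% to 95%. The fit of locus values was tested on simulated data, and the fits of transcripts and shares were not.

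Loci named in the text are the 12 with the highest mean, the 10 largest called rises and falls, the 3 on each side of the 5% and 20 FPKM limits, the 5 longest, the 5 with most transcripts, and any with a known transcript called against its locus. All other loci and the single transcripts were picked out after their values were seen. The 5 longest were POPTR_0014s12150.r1, POPTR_0006s15880.r1, POPTR_0018s04760.r1, POPTR_0005s05090.r1 and POPTR_0006s08180.r1. The loci, rules and tests were chosen with earlier results of these data known. Files gave 0 gene names, so planned lists by gene product were not used.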

Additional observations from a re-analysis of the deposited data

How the results depend on the processing

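The 13 rises and 21 falls of new-led loci varied with the fit. They became 8 and 7 after quantile normalization and 28 and 43 with sample weights. With known transcripts only they became 0 and 0, but just 31 of the new-led loci could be tested there. With new transcripts only they became 0 and 0, and 67 had an unadjusted p under 0.05 in limma. In the last setting the values of the new-led loci differed little from the main ones, as known transcripts held under 5% of each. Their median standard error was 0.128 there, against 0.095. Leaving out 1 library gave 1 to 13 rises and 2 to 14 falls: 13 and 14 without control sample 1, 3 and 4 without control sample 2, 5 and 9 without control sample 3, 4 and 4 without air-dried sample 1, 1 and 2 without air-dried sample 2, and 1 and 2 without air-dried sample 3. POPTR_0018s08300.r1, POPTR_0014s08990.r1 and POPTR_0022s00300.r1 were called in all 17 other settings, those of pseudocount, filter, scaling, variance, block, left-out library and short features. For the leading new transcripts, 1 rise and 1 fall became 2 rises without the filter, 3 and 2 at a mean of at least 5 FPKM, 0 falls after quantile normalization, 0 and 0 without the variance trend, 5 and 5 with sample weights, 2 falls without features under 300 bases, and 0 to 1 of each with 1 library left out. Leaving out features under 300 bases and control sample 1 together, chosen after seeing the data, gave 14 rises and 19 falls. The cause of these changes was not tested. The percentage called among all tested loci is given for the main fit, without control sample 1 and with the block. For the other settings it is not given, so those counts are no result about the new-led loci. Shares of new-led loci had 0 calls in every setting run.

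With a replicate block, new-led loci gave 1 rise and 2 falls, beside 1.23% of all loci called, and leading transcripts 0 and 0. Same-numbered samples correlated by 0.025, -0.065 and 0.050 in their deviations, and differently numbered ones by -0.141 to 0.137. These values show no pairing by number, but with 3 samples per group they cannot decide whether there was one.

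The number of new-led loci was 571 with a known share under 10%, 339 under 2%, 844 at a mean of at least 10 FPKM, 208 at 40 FPKM, 634 with the share of the mean, and 496 without control sample 1, of which 435 were among the 445. Without fragment totals, no value can be given a counting error.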
